A study of Mus musculus with 38 samples.

Results

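The 7 genes described here encode the TREM2 receptor, its adaptor and the signaling proteins near it: Trem2, Treml2, Tyrobp, Hcst, Syk, Lyn and Vav1. They were chosen by name, through the Ensembl identifier that each symbol maps to, and all 7 are among the 48709 genes counted in each library. The values come from RNA sequencing of the hippocampus of 38 C57BL/6 mice in 8 groups. Wild-type (WT) mice and APPPS1ΔE9 mice, which carry human transgenes, APP among them, under the prion promoter and develop amyloid plaques, received placebo chow or chow with 2 g anle138b per kg. Anle138b is a diphenyl-pyrazole compound made to act on protein aggregates. The pre-plaque group was treated for 4 months from month 2 and analyzed at 6 months of age, with 4 mice in each of its 4 groups. Its name refers to the start of treatment. When analyzed, its APPPS1ΔE9 mice also had plaques in hippocampus and cortex, as the authors counted by staining. The post-plaque group was treated for 4 months from month 6 and analyzed at 10 months of age, with 5 WT mice on placebo, 5 WT mice on anle138b, 5 APPPS1ΔE9 mice on placebo and 7 APPPS1ΔE9 mice on anle138b. The transgenes are expressed in many brain cells and not only in the cells that express the genes described here, and the RNA was extracted from whole tissue.

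TREM2 is a surface receptor of microglia, the resident macrophages of the brain, and binds lipids and lipoproteins. It has no signaling domain of its own and pairs with DAP12, the product of Tyrobp, whose intracellular motif is phosphorylated by Src family kinases such as LYN and then recruits the kinase SYK. Downstream of SYK, phospholipase C, PI3K and the exchange factor VAV1 pass the signal on to calcium, survival and the cytoskeleton. DAP10, the product of Hcst, is a sister adaptor of DAP12 that recruits PI3K, and TREML2 is a receptor of the same family that does not need DAP12. Variants of TREM2 alter the risk of Alzheimer's disease, and microglia around plaques change their expression in part through this receptor.

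In the mouse genome (GRCm38), Trem2 (ENSMUSG00000023992) lies on chr17:48346401-48354147, on the plus strand, and Treml2 (ENSMUSG00000071068) lies on the same strand at chr17:48299498-48312533, 33867 bases before it. Tyrobp (ENSMUSG00000030579) at chr7:30413760-30417585 and Hcst (ENSMUSG00000064109) at chr7:30417712-30419854 face each other on opposite strands with 126 bases between them. Vav1 (ENSMUSG00000034116) is at chr17:57279100-57328031, Syk (ENSMUSG00000021457) at chr13:52583173-52648792 and Lyn (ENSMUSG00000042228) at chr4:3678115-3813122, all on the plus strand. Lyn shares exon sequence with the antisense gene Gm26857, and since the strandedness of the counting is not given in the sources used here, reads of this pair cannot be told apart. The other 6 genes share no exon with another annotated gene.

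The RefSeq promoter table (GRCm38.p6, 250 bases before to 50 after a start site) held 4 of the 7 genes, Trem2, Vav1, Hcst and Syk, and Tyrobp, Treml2 and Lyn were not matched. The windows of Trem2 and Vav1, which were both higher in APPPS1ΔE9 mice of the post-plaque group, and of Hcst, the neighbor of Tyrobp, are shown on the strand of the gene. Capitals mark AGGAAGT, searched on both strands, the core that ETS factors such as PU.1 bind, PU.1 being the main transcription factor of myeloid cells.
Trem2, chr17:48346151-48346450, plus strand: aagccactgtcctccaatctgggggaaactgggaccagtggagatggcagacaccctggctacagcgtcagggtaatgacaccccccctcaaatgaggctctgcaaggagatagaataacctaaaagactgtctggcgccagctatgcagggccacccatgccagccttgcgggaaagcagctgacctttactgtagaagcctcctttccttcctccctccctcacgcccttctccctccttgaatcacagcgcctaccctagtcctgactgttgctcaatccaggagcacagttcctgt
Vav1, chr17:57278850-57279149, plus strand: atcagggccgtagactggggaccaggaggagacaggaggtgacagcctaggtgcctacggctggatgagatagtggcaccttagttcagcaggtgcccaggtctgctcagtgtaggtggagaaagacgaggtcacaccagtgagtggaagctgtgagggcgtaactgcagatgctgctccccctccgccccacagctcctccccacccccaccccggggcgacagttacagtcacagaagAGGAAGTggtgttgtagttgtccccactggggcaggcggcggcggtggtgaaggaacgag
Hcst, chr7:30419805-30420104, minus strand: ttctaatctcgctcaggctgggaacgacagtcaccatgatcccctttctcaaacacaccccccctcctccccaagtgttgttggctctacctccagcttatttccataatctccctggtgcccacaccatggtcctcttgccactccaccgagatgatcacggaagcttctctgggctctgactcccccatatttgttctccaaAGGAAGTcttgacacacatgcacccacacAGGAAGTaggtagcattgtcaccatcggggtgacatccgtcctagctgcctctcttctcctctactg
The motif was present 1 time in the Vav1 window, 10 bases before the start site, and 2 times in the Hcst window, 46 and 17 bases before it. These letters were not in the window of Trem2 or in either of the 2 windows of Syk. Of all 32851 promoter windows in the table, 9.35% held the motif, so its presence is a description of these windows and not evidence of binding.

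The libraries held 15847985 to 31895808 counted reads. App, Prnp and Lamr1-ps1 separated the mice by the genotypes as grouped, with App at 1516 to 1806 CPM (reads scaled to the TMM-adjusted library size) in WT and 3235 to 4316 CPM in APPPS1ΔE9 mice. Another label of the 4 pre-plaque WT mice on placebo names the transgenic genotype, and their values were those of WT. The X inactivation transcript Xist was 1160 to 1437 CPM in 12 mice, in which Y-linked transcripts summed to at most 1.88 CPM, and at most 5.35 CPM in the other 26. These 12 mice were 3 and 2 of 4 pre-plaque WT mice and 3 and 3 of 5 post-plaque WT mice (placebo and anle138b), none of the 8 pre-plaque APPPS1ΔE9 mice, none of the 5 post-plaque APPPS1ΔE9 mice on placebo and 1 of the 7 on anle138b. Sequencing lanes also followed the groups: in the post-plaque group, all 10 WT libraries came from lanes 3 and 4 and all 12 APPPS1ΔE9 libraries on lanes 5 and 6, so genotype and lane cannot be told apart there. In the pre-plaque group, WT libraries came from lanes 4 and 5, those of APPPS1ΔE9 mice on placebo from lane 5 and on anle138b from lane 6, so genotype and lane cannot be told apart within either chow. Between genotypes, Trem2 and Tyrobp are given with and without the mice high in Xist, as are Treml2 and Vav1 in the post-plaque fit over both chows. Values of Syk, Lyn and Hcst between genotypes, the tests of interaction and age, and the wider lists are given only with these mice. Prox1 and Wfs1, markers of dentate granule and CA1 neurons, had at least 1273 and 818 reads in every library. Each library is labelled as a mouse of its own, and the p-values measure the spread between these mice.

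Per kilobase of merged exons, the level of the 7 genes over all 38 mice was highest for Tyrobp, with 35.2 ± 15.6 CPM per kilobase (SD, n = 38). Trem2 followed with 5.20 ± 2.47, and Lyn (1.98 ± 0.242), Vav1 (1.44 ± 0.341), Syk (0.574 ± 0.112), Hcst (0.400 ± 0.176) and Treml2 (0.150 ± 0.0629) were lower. Tyrobp was above Trem2 in 38 of 38 mice, Trem2 above Lyn in 38 and Vav1 above Syk in 38, while Lyn was above Vav1 in 36 and Syk above Hcst in 31. With the mean length of the coding transcripts in place of merged exons, an alternative added after the data were seen, the order of the 7 genes was the same, but Trem2 came to 23.97 ± 11.4 CPM per kilobase beside 41.7 ± 18.4 for Tyrobp. The distance between receptor and adaptor therefore depends on the length used. Hcst had 1 to 13 reads and Treml2 6 to 40 reads per library, so that counting error is a large part of their spread, whereas Trem2 had 202 to 1318 reads.

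**Figure D1:**
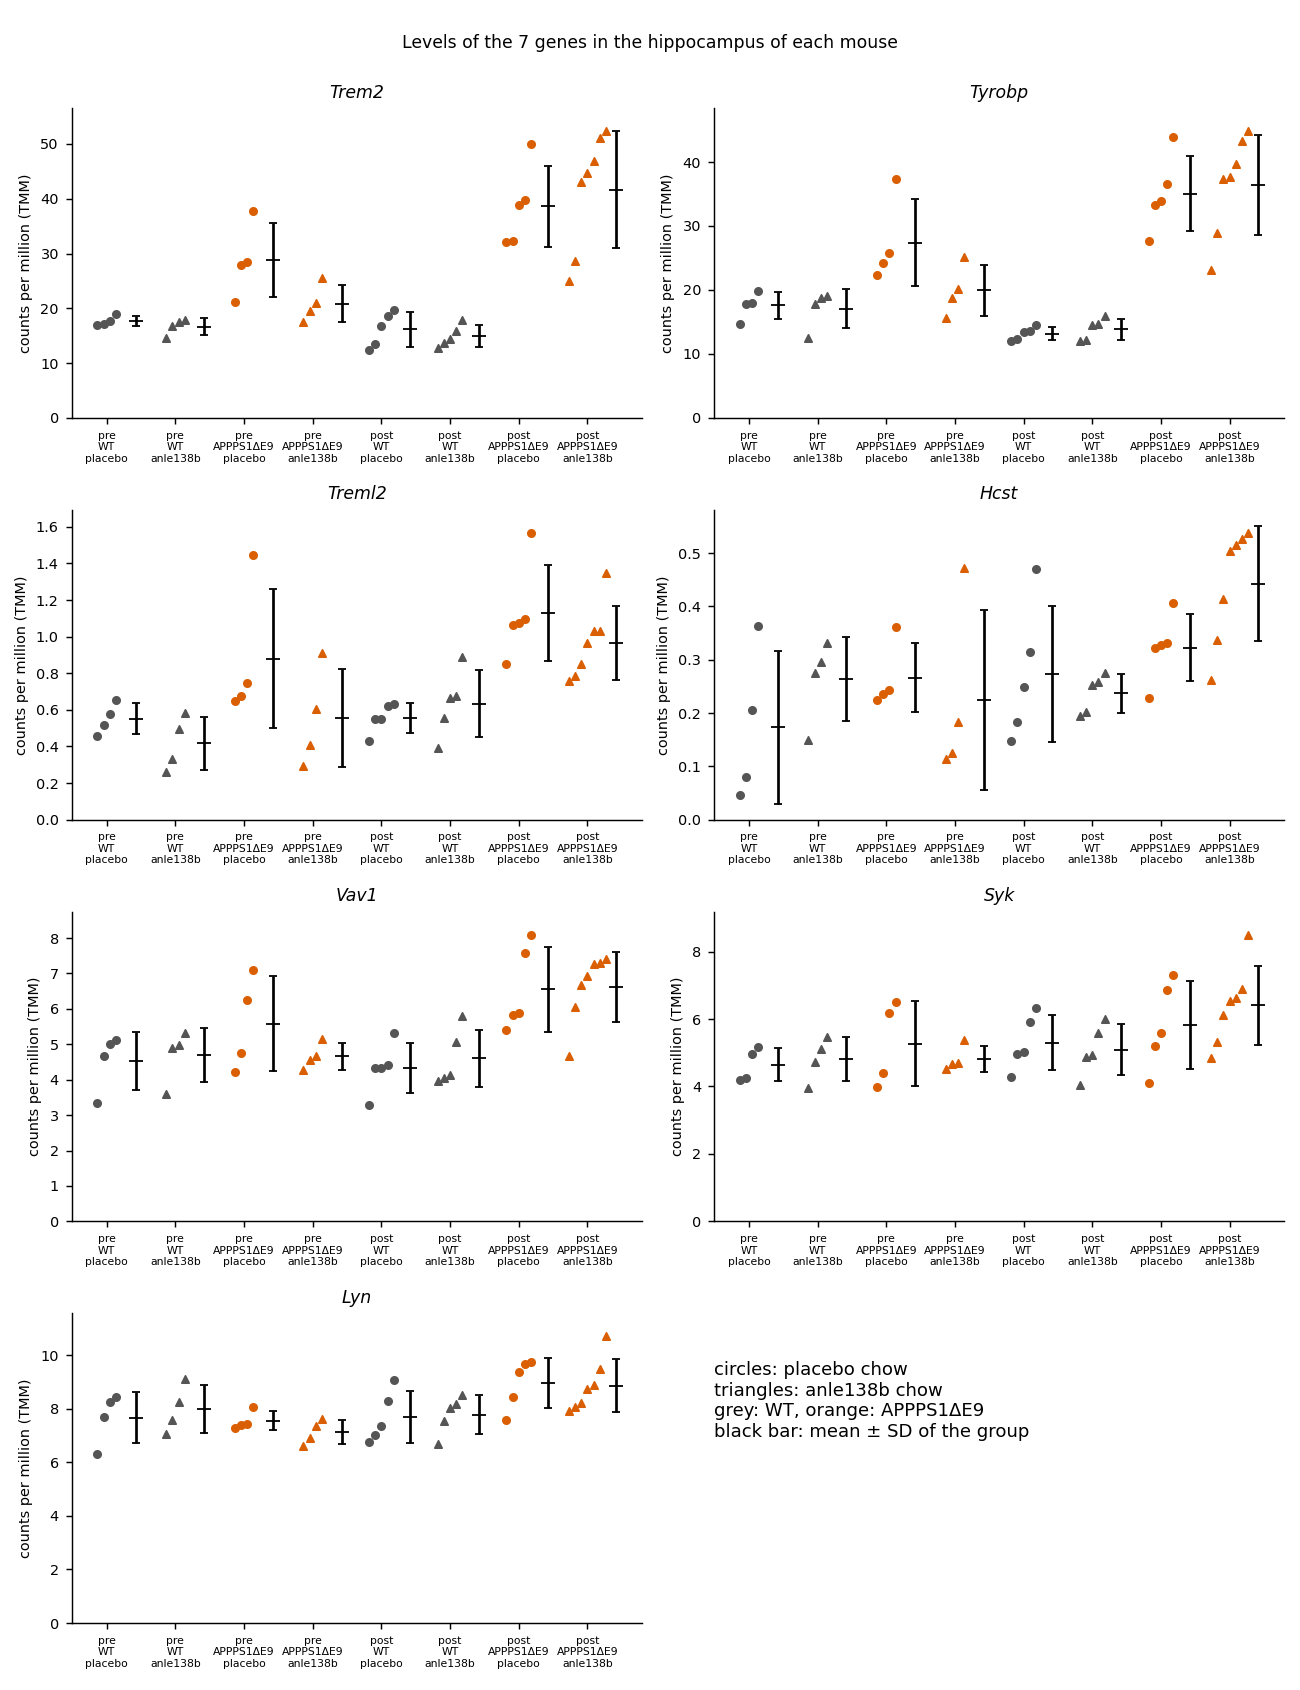
Level of each of the 7 genes in CPM (vertical axis from 0, TMM-scaled) in every mouse by group, with the mean ± SD of the group as a black bar. Trem2 and Tyrobp in post-plaque APPPS1ΔE9 mice lie above all post-plaque WT mice, while the groups overlap for Syk, Lyn and Hcst.

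The comparison of genotypes in the post-plaque group asks how these genes stand in a hippocampus with plaques. The receptor and its adaptor were both higher in APPPS1ΔE9 mice, on either chow, by more than the spread between mice. Trem2, the receptor, measured 12.3, 13.4, 16.8, 18.6 and 19.7 CPM in the 5 WT mice on placebo and 32.02, 32.2, 38.95, 39.7 and 50.01 CPM in the 5 APPPS1ΔE9 mice on placebo. The groups did not overlap. The difference was 2.36-fold, with a log2 fold change of 1.24 ± 0.16 (SE, edgeR quasi-likelihood test, adjusted p = 0.00826). Tyrobp, the adaptor, measured 12.03, 12.4, 13.4, 13.6 and 14.5 CPM in WT and 27.7, 33.3, 33.9, 36.6 and 43.9 CPM in APPPS1ΔE9 mice, again without overlap. Its difference was 2.64-fold, with a log2 fold change of 1.40 ± 0.11 (SE, adjusted p = 0.000212).

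On anle138b, Trem2 measured 12.8, 13.6, 14.5, 15.9 and 17.9 CPM in the 5 WT mice, and in the 7 APPPS1ΔE9 mice its lowest, median and highest values were 24.99, 44.7 and 52.3 CPM. Tyrobp measured 11.99, 12.3, 14.5, 14.6 and 15.9 CPM in WT and 23.1, 37.7 and 44.8 CPM (lowest, median and highest) in APPPS1ΔE9 mice. Both genes were without overlap between genotypes. The log2 fold change was 1.47 ± 0.19 for Trem2 (SE, edgeR, adjusted p = 0.00312) and 1.38 ± 0.16 for Tyrobp (SE, adjusted p = 0.00131). Replicates 4 and 5 of the APPPS1ΔE9 mice on anle138b had the lowest Trem2 of the 7, with 28.6 and 24.99 CPM, and also the lowest Tyrobp, with 28.98 and 23.1 CPM. The same 2 mice had the lowest summed level of the pan-myeloid markers in that group, 233 and 243 CPM against 314 to 410 CPM in the other 5. Replicate 5 also held choroid plexus markers (4263 CPM against 30.5 to 268 CPM in the other 6). The part of these markers in the spread was not tested.

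Treml2 and Vav1 were higher in post-plaque APPPS1ΔE9 mice with both chows in a single fit, but in edgeR did not pass the threshold within a single chow. DESeq2 called Treml2 (adjusted p = 0.0930) and Vav1 (adjusted p = 0.0787) on placebo and Vav1 on anle138b (adjusted p = 0.0353), and edgeR called Treml2 on placebo with all 4 groups in a single fit (adjusted p = 0.0343). Over all genes, DESeq2 called 113 of 18872 on placebo and 188 of 21086 on anle138b. Treml2, the related receptor, measured 0.428, 0.549, 0.551, 0.623 and 0.630 CPM in WT and 0.850, 1.06, 1.076, 1.10 and 1.57 CPM in APPPS1ΔE9 mice on placebo, without overlap, a 2.01-fold difference (95% interval of the log2 fold change 0.55 to 1.46, edgeR, adjusted p = 0.118). On anle138b it ranged from 0.394 to 0.887 CPM in WT and from 0.755 to 1.35 CPM in APPPS1ΔE9 mice, with overlap (log2 fold change 0.60 ± 0.21, adjusted p = 0.646). Vav1, the exchange factor that activates small GTPases, measured 3.30, 4.32, 4.33, 4.40 and 5.32 CPM in WT and 5.40, 5.83, 5.88, 7.59 and 8.10 CPM in APPPS1ΔE9 mice on placebo. These 2 groups did not overlap, although the gap between the nearest mice was narrow, and the log2 fold change was 0.59 ± 0.15 (SE, adjusted p = 0.396). On anle138b, Vav1 was 3.95 to 5.80 CPM in WT and 4.66 to 7.42 CPM in APPPS1ΔE9 mice, with overlap, and the log2 fold change was 0.51 ± 0.14 (SE, adjusted p = 0.243). For each of them a single mouse decided a call: without replicate 1 of the APPPS1ΔE9 mice on placebo, Treml2 passed on placebo (1.10, adjusted p = 0.0867), and without replicate 4 of those on anle138b, Vav1 passed on anle138b (0.58, adjusted p = 0.0443).

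The kinases overlapped between the genotypes on either chow, and neither passed the threshold. Syk, the kinase recruited by phosphorylated DAP12, measured 4.28, 4.96, 5.03, 5.92 and 6.31 CPM in WT and 4.10, 5.21, 5.58, 6.87 and 7.32 CPM in APPPS1ΔE9 mice on placebo, with groups that overlapped over most of their range. Its log2 fold change was 0.13 (95% interval -0.25 to 0.50) on placebo and 0.32 (0.01 to 0.63) on anle138b. Lyn, the Src family kinase, was 6.78 to 9.07 CPM in WT and 7.59 to 9.73 CPM in APPPS1ΔE9 mice on placebo, and its log2 fold change was 0.21 (-0.03 to 0.44) on placebo and 0.17 (-0.03 to 0.37) on anle138b. A change of the size seen for Trem2 or Tyrobp is outside these 4 intervals. Hcst, the sister adaptor, had too few reads for the fit on placebo (0.147 to 0.471 CPM in WT, 0.229 to 0.407 CPM in APPPS1ΔE9 mice, two-sided exact permutation test p = 0.333, smallest p possible 0.00794). On anle138b it had a log2 fold change of 0.87 ± 0.23 (SE, edgeR, adjusted p = 0.296). It had 5 to 7 reads per library in these WT mice and 6 to 13 in these APPPS1ΔE9 mice. In the main fits, Hcst passed the filter on low counts only where these APPPS1ΔE9 mice were included, the group in which it was highest. Its values in such fits are therefore a description and not a test.

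Counted over the genes, 2 of the 6 tested passed an adjusted p of 0.1 on placebo, where 0.324% of all 16971 genes tested did so, and 2 of 7 passed on anle138b, where 0.723% of 17151 did. Without overlap and higher in APPPS1ΔE9 mice were 4 members on placebo, as 1.11% of all genes were, and 2 on anle138b, as 0.81% were. With both chows in a single fit and chow as a term (10 WT and 12 APPPS1ΔE9 mice), 4 of 6 tested genes passed, beside 1.54% of 17351, and all 4 were higher in APPPS1ΔE9 mice, beside 1.42%. The log2 fold changes in that fit were 1.36 ± 0.13 for Trem2 (SE, adjusted p = 6.18e-07), 1.39 ± 0.10 for Tyrobp (adjusted p = 6.16e-09), 0.78 ± 0.15 for Treml2 (adjusted p = 0.00336) and 0.54 ± 0.10 for Vav1 (adjusted p = 0.00284). Lyn (0.19 ± 0.07, adjusted p = 0.355) and Syk (0.23 ± 0.11, adjusted p = 0.714) did not pass, and Hcst was left out by the filter. Trem2 and Tyrobp were the only members whose 12 APPPS1ΔE9 mice all lay above the 10 WT mice, as 0.403% of all genes tested did. The median log2 fold change of the 6 tested genes was 0.66, beside -0.01 for all genes. In the fit without the 7 mice high in Xist (4 WT and 11 APPPS1ΔE9 mice left), Trem2 had 1.35 ± 0.19 (SE, adjusted p = 0.00293) and Tyrobp 1.45 ± 0.15 (SE, adjusted p = 0.000190), while Treml2 (0.56 ± 0.20, adjusted p = 0.609) and Vav1 (0.56 ± 0.14, adjusted p = 0.107) did not pass. Within a single chow, Tyrobp passed without these mice (1.38, adjusted p = 0.0710, on placebo and 1.52, adjusted p = 0.0605, on anle138b) and Trem2 did not (1.12, adjusted p = 0.266, and 1.59, adjusted p = 0.116). Over all genes, 136 of 17555 passed over both chows without these mice, 8 of 17660 on placebo and 51 of 17667 on anle138b.

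**Figure D2:**
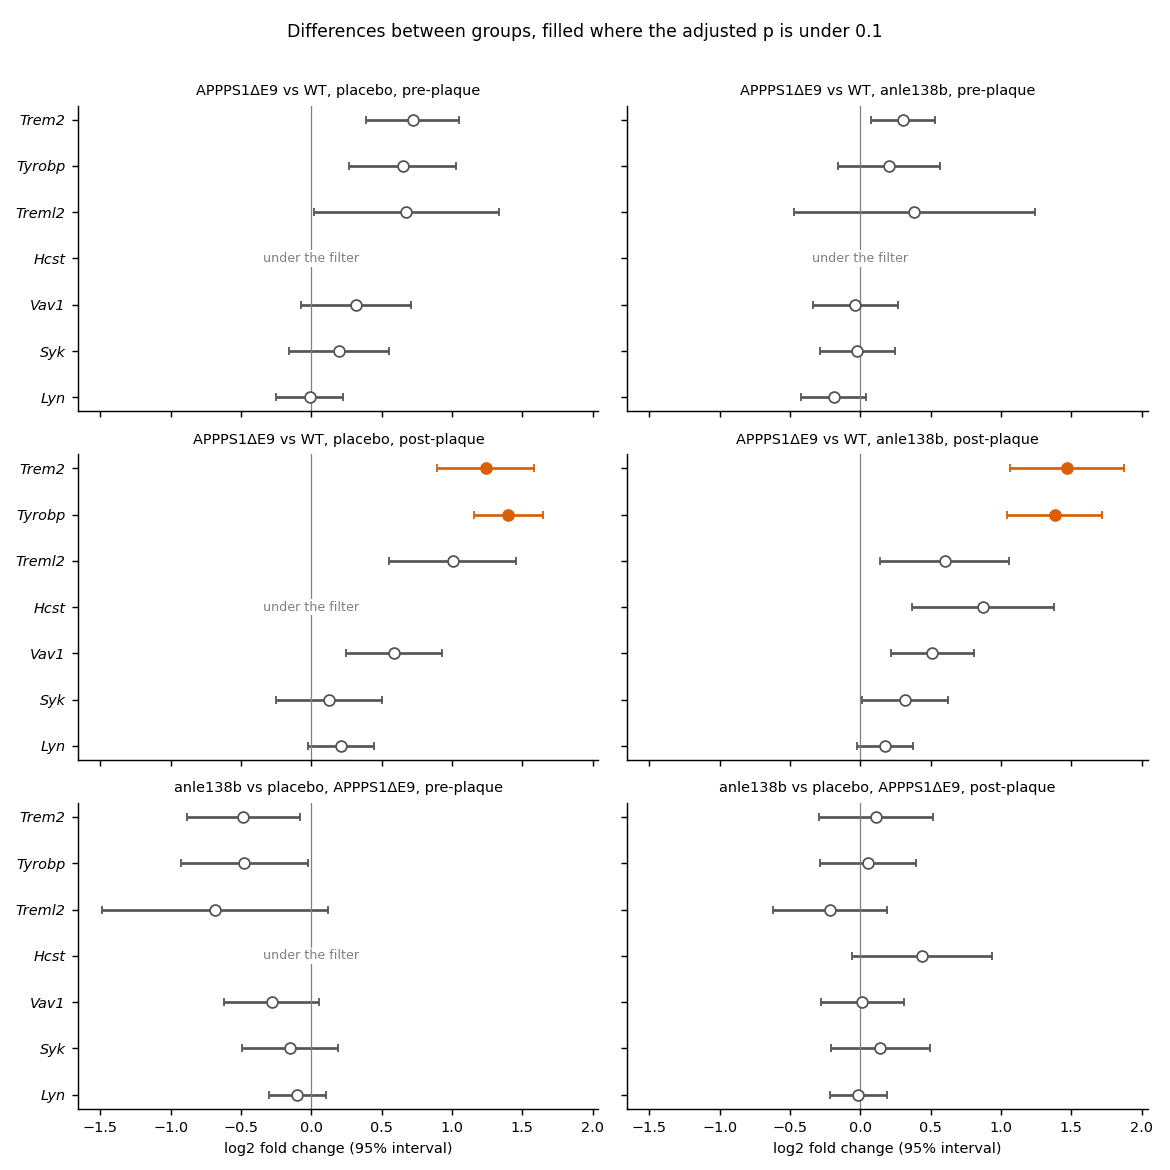
Log2 fold change (horizontal axis) with 95% interval of each of the 7 genes in 6 comparisons, filled where the adjusted p is under 0.1. Trem2 and Tyrobp are filled in both post-plaque comparisons of genotypes, and no gene is filled between pre-plaque genotypes or between chows.

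In the pre-plaque group, none of the 7 genes passed the threshold of edgeR's quasi-likelihood test, although Trem2 and Tyrobp were higher in every APPPS1ΔE9 mouse on placebo than in every WT mouse on placebo. Trem2 measured 16.96, 17.2, 17.6 and 18.9 CPM in WT and 21.2, 28.002, 28.4 and 37.8 CPM in APPPS1ΔE9 mice. Tyrobp measured 14.7, 17.8, 18.02 and 19.9 CPM in WT and 22.3, 24.3, 25.7 and 37.3 CPM in APPPS1ΔE9 mice. The WT mice were close together, the APPPS1ΔE9 mice spread widely, and 1.87% of all genes were likewise higher without overlap. The log2 fold change was 0.72 ± 0.15 for Trem2 (SE, adjusted p = 0.282) and 0.65 ± 0.17 for Tyrobp (SE, adjusted p = 0.348). None of 6 tested genes passed, beside 0.0715% of 16774 genes, while 3 of 6 had an unadjusted p under 0.05, as 11.1% of all genes had. DESeq2 called 2, Trem2 and Tyrobp, beside 89 of 19020 genes. Without replicate 1 of the APPPS1ΔE9 mice on placebo, which had the lowest value of both genes, Trem2 (0.84, adjusted p = 0.00238) and Tyrobp (0.73, adjusted p = 0.0948) passed, in a fit in which 205 of 16930 genes passed in place of 12 of 16774. All WT libraries on placebo were from lane 4 and all APPPS1ΔE9 libraries from lane 5. With lane as a term, made possible by adding the WT mice on anle138b to the fit, Trem2 was 0.58 ± 0.23 (SE, adjusted p = 0.510) and Tyrobp 0.36 ± 0.28 (SE, adjusted p = 0.702). Without the mice high in Xist, which left 1 WT mouse that is assumed to vary like the others, Trem2 was 0.77 ± 0.32 and Tyrobp 0.93 ± 0.32 (SE, adjusted p = 0.9998 for both).

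On anle138b, the pre-plaque genotypes overlapped. Trem2 measured 14.5, 16.8, 17.5 and 17.8 CPM in WT and 17.6, 19.5, 21.04 and 25.5 CPM in APPPS1ΔE9 mice, and its log2 fold change was 0.30 ± 0.10 (SE, edgeR, adjusted p = 0.836). Tyrobp measured 12.6, 17.8, 18.8 and 19.1 CPM in WT and 15.6, 18.8, 20.2 and 25.2 CPM in APPPS1ΔE9 mice (0.20 ± 0.16, adjusted p = 0.860). None of 6 tested genes passed in edgeR, beside 0.047% of 17033, and 1 of 6 had an unadjusted p under 0.05 as 5.64% of all genes had. DESeq2 called no member, beside 42 of 26920 genes. With both chows in a single fit, 0 of 6 passed in edgeR beside 0.17% of 17088 genes, and 3 had an unadjusted p under 0.05 (10.5% of all genes). DESeq2 called 2, beside 231 of 14596 genes. Trem2 was nearest to the threshold in that fit, with 0.51 ± 0.11 (SE, adjusted p = 0.104), and it passed in 3 of the 16 fits that leave out a mouse. Those were replicate 2 of the APPPS1ΔE9 mice on anle138b (0.57, adjusted p = 0.0555) and replicates 1 (0.55, adjusted p = 0.0556) and 4 (0.43, adjusted p = 0.0558) of those on placebo. Vav1, Syk and Lyn had log2 fold changes of 0.14, 0.09 and -0.10, and each 95% interval included 0. Without the mice high in Xist, Trem2 was 0.35 and Tyrobp 0.30 on anle138b (adjusted p = 0.610 and 0.760), and 0.51 and 0.53 over both chows (adjusted p = 0.565 each).

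Markers of choroid plexus, the epithelium beside the hippocampus, varied between pre-plaque dissections. Among the 8 pre-plaque APPPS1ΔE9 mice, the summed level of Ttr, Folr1 and Kl was 59.6 to 690 CPM in replicates 2, 3 and 4 on placebo and replicate 4 on anle138b, and 5969 to 7348 CPM in the other 4. Trem2 measured 28.002, 28.4, 37.8 and 25.5 CPM in the former mice and 17.6 to 21.2 CPM in the latter. Thus 3 of the 4 APPPS1ΔE9 mice on placebo but only 1 of the 4 on anle138b were low in choroid plexus markers. In WT mice on placebo, replicate 4 was low in these markers (175 CPM) and had 18.9 CPM of Trem2, beside 16.96 to 17.6 CPM in the other 3, and in WT mice on anle138b replicate 4 was low (241 CPM) and had 17.8 CPM of Trem2, beside 14.5 to 17.5 CPM. The other 3 WT mice on placebo were high in these markers (3842 to 7455 CPM). Replicate 1 was the only APPPS1ΔE9 mouse on placebo high in them (6460 CPM). The fit between genotypes without it thus set 3 mice low in these markers against mostly high WT mice. The part of the dissection in these differences was not tested.

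The comparison of chows asks whether anle138b moved these genes. In pre-plaque APPPS1ΔE9 mice, Trem2 was 20.9 ± 3.37 CPM on anle138b (SD, n = 4) and 28.9 ± 6.81 CPM on placebo (SD, n = 4), with overlap, a log2 fold change of -0.48 (95% interval -0.89 to -0.08) and an adjusted p of 0.345 (edgeR). Tyrobp was 19.9 ± 4.01 against 27.4 ± 6.78 CPM (SD, n = 4 each), with a log2 fold change of -0.48 (-0.93 to -0.02, adjusted p = 0.371). All 6 tested genes had a negative sign, with a median of -0.38 beside -0.00 for all genes. Yet none passed in edgeR, beside 0.0529% of 17009 genes, and 2 had an unadjusted p under 0.05 as 13.1% of all genes had. DESeq2 called no member, beside 205 of 15550 genes. Without replicate 1 of the placebo mice, Trem2 passed (-0.60, adjusted p = 0.0961), in a fit in which 317 of 17196 genes passed in place of 9 of 17009. That mouse was the 1 placebo mouse of the 4 with high choroid plexus markers (6460 CPM), and without it 3 placebo mice low in these markers stood against 3 of 4 anle138b mice high in them. The placebo libraries were on lane 5 and the anle138b libraries on lane 6, so chow and lane cannot be told apart here.

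In post-plaque APPPS1ΔE9 mice, the receptor and its adaptor overlapped between the chows, and neither passed the threshold. Trem2 was 41.7 ± 10.7 CPM on anle138b (SD, n = 7) and 38.6 ± 7.34 CPM on placebo (SD, n = 5), with a log2 fold change of 0.11 (95% interval -0.29 to 0.52). Tyrobp was 36.4 ± 7.80 against 35.1 ± 5.90 CPM, with 0.06 (-0.29 to 0.40). Vav1 had 0.01 (-0.28 to 0.31), Syk 0.14 (-0.21 to 0.49), Lyn -0.01 (-0.22 to 0.19), Treml2 -0.22 (-0.62 to 0.19) and Hcst 0.44 (-0.06 to 0.93). Hcst passed the filter here with the group in which it was highest, so its value is a description. None of the 7 passed in edgeR, none had an unadjusted p under 0.05 (1.48% of all genes had), and DESeq2 called none. Over all genes, edgeR called 0 of 17110 and DESeq2 called 0 of 32317. Changes up to the bounds of these intervals would not be told from none with these mice.

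In WT mice, no member passed between the chows in either age group in edgeR or DESeq2, and none had an unadjusted p under 0.05, beside 1.85% (pre-plaque) and 1.25% (post-plaque) of all genes. Over all genes, edgeR called 0 of 16766 and 0 of 16986, and DESeq2 called 2 of 31055 and 0 of 31973. The log2 fold change of Trem2 was -0.06 (95% interval -0.23 to 0.10) in the pre-plaque and -0.11 (-0.41 to 0.18) in the post-plaque group, and that of Tyrobp was -0.02 (-0.31 to 0.26) and 0.07 (-0.12 to 0.27). Without the mice high in Xist, Trem2 passed in the post-plaque WT mice (-0.41, adjusted p = 0.0141), but only 2 mice a group were left and 5550 of 17203 genes passed in that fit. By exact permutation test (two-sided), Hcst gave p = 0.257 and p = 0.746 between chows in pre-plaque and post-plaque WT mice. In the pre-plaque group it gave p = 0.229 (placebo) and p = 0.457 (anle138b) between genotypes and p = 0.486 between chows in APPPS1ΔE9 mice, all by the exact permutation test. With 4 mice a group, the smallest p that this test allows is 0.0286.

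Whether the effect of genotype differed between chows or ages was tested as an interaction. Between chows, the difference of the genotype effects was -0.41 ± 0.19 for Trem2 (SE, adjusted p = 0.618 by edgeR's quasi-likelihood test) and -0.44 ± 0.25 for Tyrobp (adjusted p = 0.646) in the pre-plaque group. In the post-plaque group it was 0.23 ± 0.25 for Trem2 and -0.02 ± 0.20 for Tyrobp (adjusted p = 0.989 and 0.999). No member passed in either age group in edgeR or DESeq2, and 1 and 0 members had an unadjusted p under 0.05, beside 7.99% and 2.3% of all genes. Over all genes, edgeR called 0 of 17404 and 0 of 17668, and DESeq2 called 28 of 8219 and 2 of 34129. Between ages, the genotype effect on placebo was larger in the post-plaque group by 0.75 ± 0.20 for Tyrobp (SE, adjusted p = 0.635) and by 0.52 ± 0.23 for Trem2 (adjusted p = 0.789). On anle138b it was larger by 1.17 ± 0.25 for Trem2 (adjusted p = 0.151) and by 1.18 ± 0.24 for Tyrobp (adjusted p = 0.144). No member passed in either fit in edgeR, where 0 of 17681 genes and 0.028% of 17875 passed. There 2 and 5 members had an unadjusted p under 0.05, beside 6.16% and 5.84% of all genes. Hcst was among the 5, with the limit of its filter given above. DESeq2 called 0 and 2 members, beside 14 of 14725 and 42 of 16807 genes. Without replicate 4 of the post-plaque APPPS1ΔE9 mice on anle138b, both Trem2 (1.24, adjusted p = 0.0730) and Tyrobp (1.23, adjusted p = 0.0877) passed on anle138b, and without replicate 5 both did so as well (1.26 and 1.27, adjusted p = 0.0176 each). The groups of a given age serve in several of these comparisons, so the comparisons are not independent of each other.

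The order of the 8 group means of Trem2 ran from post-plaque APPPS1ΔE9 mice on anle138b (41.7 CPM) and placebo (38.6 CPM) through pre-plaque APPPS1ΔE9 mice on placebo (28.9 CPM) and anle138b (20.9 CPM) to the WT groups (14.9 to 17.7 CPM). Neighbors in this order within an age and genotype did not differ past the threshold. In WT mice, Tyrobp was 17.6 ± 2.15 and 17.1 ± 3.05 CPM in the pre-plaque group and 13.2 ± 1.001 and 13.9 ± 1.67 CPM in the post-plaque group (SD, placebo and anle138b). The difference between ages in WT mice was not tested.

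The level of microglia markers moved with these genes. The mean log2 CPM of 10 homeostatic markers, among them Csf1r, Cx3cr1, P2ry12 and Tmem119, was 5.44 ± 0.16 and 5.51 ± 0.21 in post-plaque APPPS1ΔE9 mice (SD, placebo and anle138b) and 5.06 ± 0.13 and 5.06 ± 0.16 in WT. Of these markers, 7 of 10 were higher in the post-plaque fit over both chows, beside 1.42% of all genes, and Gpr34, P2ry12 and Tmem119 did not pass. Of the pan-myeloid markers, among them C1qa, Aif1 and Spi1, 8 of 8 were higher, beside the same share of all genes. In bulk tissue, more cells of a type and more RNA per cell cannot be told apart. Expressed relative to the homeostatic markers, Trem2 stood at -0.19 ± 0.15 and -0.17 ± 0.25 log2 units in post-plaque APPPS1ΔE9 mice and at -1.06 ± 0.17 and -1.16 ± 0.07 in WT, without overlap. Tyrobp stood at -0.32 ± 0.15 and -0.35 ± 0.18 against -1.33 ± 0.04 and -1.27 ± 0.08, also without overlap. The share of all genes without overlap on this scale was not computed, so the separation of Trem2 and Tyrobp here is a description. Vav1 stood at -2.73 ± 0.10 and -2.78 ± 0.12 against -2.93 ± 0.19 and -2.85 ± 0.16, with overlap. Syk and Lyn had the opposite sign: Syk stood at -2.91 ± 0.22 and -2.83 ± 0.15 against -2.64 ± 0.26 and -2.70 ± 0.17, and Lyn at -2.27 ± 0.12 and -2.35 ± 0.14 against -2.11 ± 0.25 and -2.09 ± 0.17, both with overlap.

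With the level of these markers as a covariate in the post-plaque fit over both chows, Trem2 kept a log2 fold change of 0.68 ± 0.10 (SE, edgeR, adjusted p = 0.00264) and Tyrobp one of 0.88 ± 0.09 (SE, adjusted p = 7.07e-06). Vav1 came to 0.08 ± 0.11 (adjusted p = 0.708) and Treml2 to 0.72 ± 0.25 (adjusted p = 0.151). Syk changed sign, from 0.23 to -0.20 ± 0.15 (adjusted p = 0.433), and Lyn came to 0.03 ± 0.11 (adjusted p = 0.902). Thus 2 in place of 4 members passed, in a fit in which 132 of 17351 genes passed in place of 268. Within a single chow, Tyrobp passed with the covariate on placebo (1.01, adjusted p = 0.0319) and on anle138b (0.78, adjusted p = 0.0692), and Trem2 did not (0.61, adjusted p = 0.126, and 0.74, adjusted p = 0.490). Over all genes, 16 of 16971 and 12 of 17151 passed with the marker covariate on placebo and on anle138b. Since most of these markers were themselves higher in APPPS1ΔE9 mice, the covariate and the genotype are not independent.

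**Figure D3:**
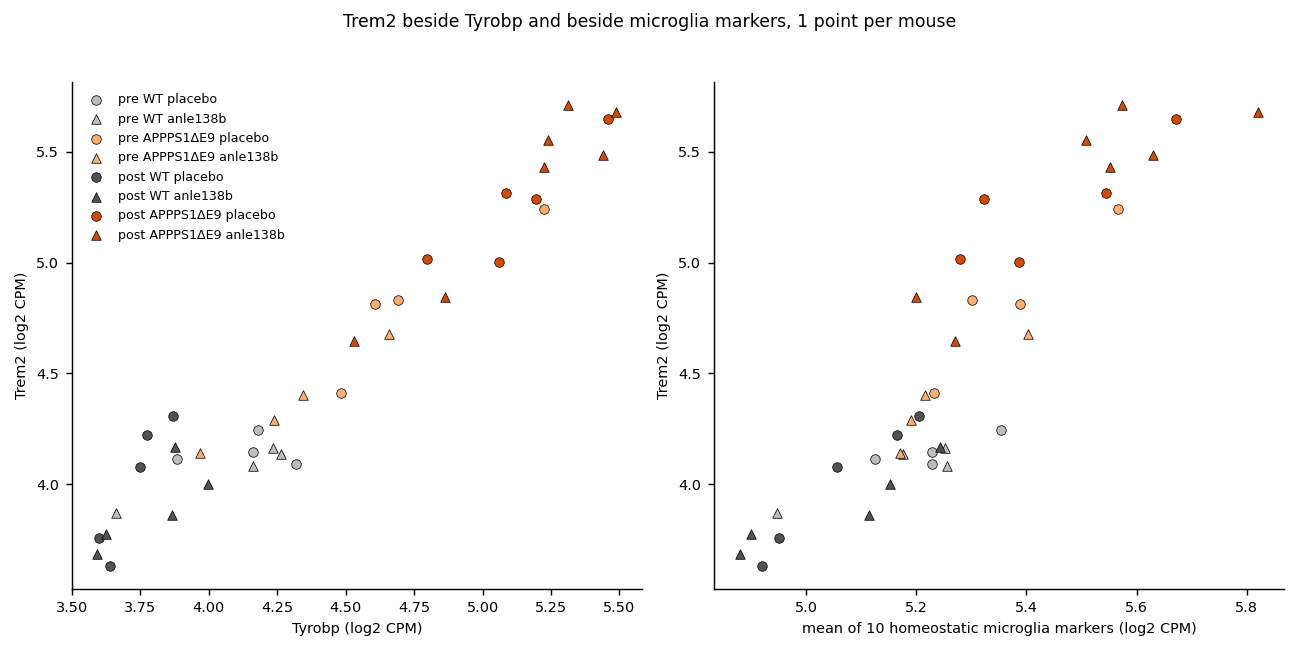
Log2 CPM of Trem2 (vertical axes) against Tyrobp (left) and against the mean of 10 homeostatic microglia markers (right), 1 point per mouse, with circles for placebo and triangles for anle138b. Trem2 and Tyrobp lie along a common line, and at marker levels of 5.2 to 5.4 the post-plaque APPPS1ΔE9 mice have more Trem2 than WT mice.

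Apart from the astrocyte list, the summed markers of other blood and brain cells were low or did not separate the genotypes. The sum of 4 astrocyte markers was 1202 to 1370 CPM in post-plaque WT mice on placebo. In post-plaque APPPS1ΔE9 mice on placebo it was 1435 to 2220 CPM, without overlap. On anle138b it was 1172 to 1830 CPM in WT and 1508 to 2285 CPM in APPPS1ΔE9 mice of this age, with overlap. The summed level of 4 T cell markers was 0.282 to 1.05 CPM over the 38 mice, that of 3 B cell markers at most 0.591 CPM and that of 4 NK cell markers at most 0.336 CPM. Cd3e and Ncr1, defining markers of T and NK cells, had at most 4 and 2 reads in any library and were at 0 in some. The neutrophil list reached 4.56 CPM and the monocyte list 2.68 CPM, and Ly6g had at most 2 reads in any library. The perivascular macrophage list (Mrc1, Cd163, Lyve1, Pf4, F13a1) was 5.30 to 14.4 CPM in post-plaque APPPS1ΔE9 and 6.13 to 20.2 CPM in post-plaque WT mice, and 0 of its 5 tested genes passed. Of all 25 tested markers of other cell types, only Gfap of astrocytes passed in the post-plaque fit over both chows (0.99 ± 0.19, adjusted p = 0.00350). The other astrocyte markers in that fit were Aqp4 at 0.29, Aldh1l1 at -0.03 and Slc1a3 at -0.05, so the list did not rise as a whole.

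The wider pathway list held 89 other genes around TREM2 and DAP12, of which 69 were tested in the post-plaque fit over both chows. In all, 12 were higher in APPPS1ΔE9 mice, 0 were lower and 57 did not pass, beside 1.54% of all genes, and the median log2 fold change of the list was 0.09, beside -0.01 for all genes. These 12 are described by role. In the list of other receptors set around DAP12 and DAP10, 3 of 4 tested rose: Cd300lf (1.32 ± 0.25), which binds lipids, Clec5a (0.60 ± 0.11), a lectin receptor, and Siglech (0.45 ± 0.09), a sialic acid receptor of microglia. The remaining receptors of this list had too few reads to be tested, and the pairing of each receptor was not tested here. Cd300lf had 0 to 22 reads per library, so it could pass the filter on low counts through the mice in which it was higher. Its value and its place among the 12 are therefore a description and not a test. The other ITAM adaptor tested, Fcer1g, the common gamma chain of Fc receptors, rose by 0.84 ± 0.08 (SE, adjusted p = 4.06e-07). Of the other TREM family receptors, Trem1, Trem3, Treml1 and Treml4 had at most 1, 5, 6 and 4 reads in any library and were not tested.

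Further along the pathway, the phosphatases Ptprc (CD45, which activates Src family kinases) and Ptpn6 (SHP-1, a brake on ITAM signaling) rose by 0.84 ± 0.09 and 0.77 ± 0.11, 2 of 4 tested. Of the Syk and Tec family kinases, Btk rose (0.63 ± 0.10), 1 of 4 tested, and of the Src family and negative kinases none of 6 passed in edgeR. The scaffold Lat2 rose (0.76 ± 0.13), 1 of 14 tested. In the PI3K group, Pik3cg (0.43 ± 0.09), Pik3r5 (0.36 ± 0.08) and Inpp5d (SHIP1, which removes a phosphate from the PI3K product, 0.39 ± 0.09) rose, 3 of 13 tested. Of 7 exchange factors and small GTPases, Was (an actin regulator, 0.49 ± 0.13, adjusted p = 0.0979) passed. None of 9 genes of the phospholipase C and CARD9 arm passed, with Plcg2 at 0.21 ± 0.10 (adjusted p = 0.652). Neither of the shedding proteases Adam10 and Adam17 passed, at 0.03 ± 0.04 and 0.13 ± 0.04, and of 5 reported ligands or co-factors none passed, Apoe at 0.24 ± 0.08 (adjusted p = 0.304) and Lgals3 at 0.63 ± 0.23 (adjusted p = 0.398).

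**Figure D4:**
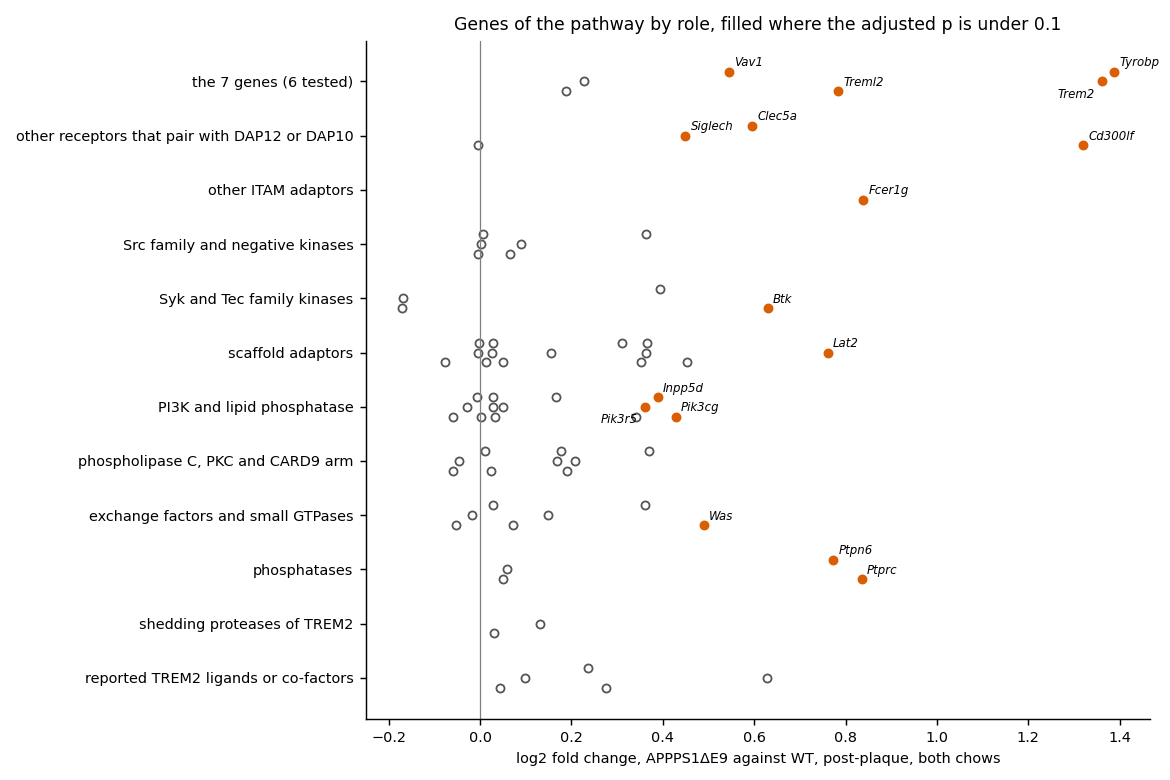
Log2 fold change of APPPS1ΔE9 against WT mice in the post-plaque group over both chows (horizontal axis) for the 6 tested members and 69 other pathway genes by role, 1 point per gene, filled and named where the adjusted p is under 0.1. The 12 other genes that pass all lie on the positive side, and most of the other genes lie near 0.

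In the other comparisons, the wider pathway list had 3 of 68 genes higher between post-plaque genotypes on placebo (Fcer1g, Lat2 and Ptprc), where 0.324% of all genes passed. On anle138b it had 6 of 69 (Cd300lf, Fcer1g, Btk, Pik3cg, Ptpn6 and Ptprc), where 0.723% of all genes passed in either direction. Cd300lf is counted there with the limit of its few reads given above. Between pre-plaque genotypes 0 of 68 passed in edgeR on either chow, beside 0.0715% (placebo) and 0.047% (anle138b) of all genes. Between chows in APPPS1ΔE9 mice 0 of 68 (pre-plaque) and 0 of 69 (post-plaque) passed, beside 0.0529% and 0.0% of all genes.

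A list of 21 genes that plaque-associated microglia express was split into 15 that are known to need TREM2 and 6 that are not. In the post-plaque fit over both chows, 10 of 15 and 4 of 6 were higher, beside 1.42% of all genes, and none was lower, with median log2 fold changes of 0.58 and 0.36. The largest changes were in Cst7 (6.22 ± 0.31), a cathepsin inhibitor, Clec7a (3.50 ± 0.22), a glucan receptor, Itgax (3.28 ± 0.22), the integrin CD11c, and Ccl6 (1.86 ± 0.21), a chemokine, all of the first set, and in Lyz2 (1.36 ± 0.19), lysozyme, of the second. Lpl (0.48 ± 0.16, adjusted p = 0.258), Spp1 (0.13 ± 0.40, adjusted p = 0.971), Gpnmb (0.80 ± 0.28, adjusted p = 0.355), Csf1 (0.16 ± 0.09, adjusted p = 0.785) and Timp2 (-0.33 ± 0.45, adjusted p = 0.944) of the first set did not pass, and Timp2 was the only gene of the 21 with a negative sign. Of the second set, Cstb (0.13 ± 0.06) and Fth1 (0.14 ± 0.14) did not pass. Between pre-plaque genotypes on placebo, where Trem2 itself did not pass, 4 of 21 did, beside 0.0715% of all genes: Cst7 (5.12), Itgax (2.41), Clec7a (2.26) and Ccl6 (1.09). On anle138b none of the 21 passed in edgeR, with Cst7 at 4.10, Itgax at 1.26, Clec7a at 1.34 and Ccl6 at 0.32, and in the test of the difference between chows as an interaction 0 of 21 passed. Cst7 had 0 to 532 reads per library, and its fold rests on few reads in WT mice. Itgax had 3 to 153 reads and Clec7a 7 to 238. The lowest counts of these 3 genes are under the filter's minimum of 10, so they could pass it through the APPPS1ΔE9 mice in which they were higher. Their values and calls at both ages are therefore a description and not a test. Ccl6 had 26 to 230 reads.

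Over the deviations of the 38 mice from their group means, Trem2 and Tyrobp followed each other with a Pearson r of 0.86 (Spearman rho 0.85), and Trem2 and Vav1 with 0.61. The r of Trem2 was 0.40 with Syk, 0.33 with Treml2, 0.25 with Lyn and 0.19 with Hcst, the gene with the fewest reads. Among the 5 genes most like Trem2 in these deviations were Vsir (r = 0.90), the checkpoint VISTA, Cx3cr1 (0.89), the fractalkine receptor, Mpeg1 (0.88), a perforin-like protein, and Ctss (0.87), a cathepsin. Among the 5 most like Tyrobp were Trem2 (0.86), Siglech (0.85), Ly86 (0.83) and C1qb (0.82). With the 2 mice farthest from their group means left out, these r values were 0.85 to 0.87 for Trem2 and 0.78 to 0.82 for Tyrobp. All mice share depth and dissection differences, and these values are a description. The level of the homeostatic markers had an r of 0.87 with Trem2, 0.85 with Tyrobp, 0.68 with Vav1, 0.63 with Syk, 0.31 with Lyn, 0.28 with Treml2 and 0.12 with Hcst in the same deviations.

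Over the 8 group means, the genes most like Trem2 were Ccl6, Ccl4, Cd84, C3ar1 and Mpeg1, with r of 0.99 or more, and those most like Tyrobp were Fcer1g, Fcgr3, Olfml3, Cyba and C1qb, with r of 0.99 or more. Among the members, Tyrobp (0.99) and Vav1 (0.97) had the group means most like those of Trem2, and Lyn (0.69) and Hcst (0.71) the least. With 8 points that share the same libraries, many genes reach such values, and none of the 5 genes nearest to Tyrobp and 1 of the 5 nearest to Trem2 were among the nearest by Spearman's rho.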

How the data were processed

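RNA of the hippocampus of 38 mice was measured as mRNA libraries (TruSeq). The authors aligned reads with STAR to mm10, used HTSeq in intersection-nonempty mode for counting, and the deposited values are raw read counts of 48709 genes per mouse, without normalization. The annotation release and strandedness are not given in the sources used here. From these counts, genes passing filterByExpr (minimum count 10, minimum total 15) were TMM-normalized, and the quasi-likelihood test of edgeR was used (R 4.3.3, edgeR 4.0.16, checked on simulated counts), for each pair of groups and for both chows, interactions and ages in larger fits, with Benjamini-Hochberg adjustment over all genes tested and a threshold of 0.1. SE is the log2 fold change divided by the root of F. CPM are TMM-scaled, and log2 CPM have a prior count of 2. DESeq2 1.42.0 was an alternative. Replicate numbers are running library numbers and state no pairing. Symbols came from GENCODE for GRCm38 (48349 of 48709 matched). Named genes were the members, the 5 genes most like Trem2 and Tyrobp, up to 3 changed genes per pathway role, and App, Prnp and Lamr1-ps1, and some of these genes are not reported here; other genes named from the lists were chosen after their values were seen. The members and lists were chosen with earlier results of these data known. Of the list symbols, 1 had no match. Depth was 15847985 to 31895808 reads per mouse, and no pair of libraries of a group was as alike as counting error allows.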

Additional observations from a re-analysis of the deposited data

Results flagged for a closer look

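Within the 8 groups, 56 sets of values (7 genes in 8 groups) were checked for a mouse that stood far from the rest of its group by Dixon's test, which by chance marks about 1 in 20 groups. Only 2 sets were marked, both in the same mouse, replicate 4 of the pre-plaque APPPS1ΔE9 mice on placebo. Its Treml2 level was 1.45 CPM, beside 0.650 to 0.748 CPM in the other 3 mice, and its Hcst level was 0.362 CPM, beside 0.224 to 0.244 CPM. The Hcst value rests on 8 reads and the Treml2 value on 32. The mouse also had the highest Trem2 (37.8 CPM), Tyrobp (37.3 CPM) and pan-myeloid marker sum (344 CPM) of its group.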

How the results depend on the processing

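Alternatives were planned unless stated. No result changed direction while past the threshold. Against the main counts of members past the threshold, DESeq2 gave 2 in place of 0 between pre-plaque genotypes on placebo and over both chows, 4 in place of 2 between post-plaque genotypes on placebo, and 2 in place of 0 for the difference between ages on anle138b. Over all genes, DESeq2 called 89, 231, 113 and 42 in these fits, in this order, where edgeR called 12, 29, 55 and 5. All 4 groups in a single fit gave 1 in place of 0 between pre-plaque genotypes on placebo, where 35 of 17404 genes passed. Y-linked expression as a covariate gave 1 in place of 2 between post-plaque genotypes on placebo and 1 in place of 0 for the difference between ages on anle138b. Over all genes, 14 of 16971 and 17 of 17875 passed with it. The microglia marker covariate gave 1 in place of 2 between post-plaque genotypes on either chow and 2 in place of 4 over both. Over all genes, 16 of 16971 (placebo), 12 of 17151 (anle138b) and 132 of 17351 (both) passed in these fits. Without the mice high in Xist, the counts were 1, 1 and 2 in place of 2, 2 and 4 in these fits. Over all genes, 8 of 17660, 51 of 17667 and 136 of 17555 passed without these mice. Between chows in post-plaque WT mice the count was 1 in place of 0, where 2 mice a group remained and 5550 of 17203 genes passed. With the replicate block, 0 in place of 2 members passed between post-plaque genotypes on anle138b (Trem2 1.34, adjusted p = 0.128, Tyrobp 1.32, adjusted p = 0.146) and 1 in place of 0 between pre-plaque genotypes over both chows. Over all genes, 20 of 17151 and 27 of 17088 passed with the block. The same-numbered mice did not deviate together in every pair (correlations from -0.673 to 0.683 over the 8 pairs of groups), so the numbers were not taken as pairs. Leaving out a mouse gave 0 to 2 members between pre-plaque genotypes on placebo, 0 to 1 over both chows, 2 to 3 between post-plaque genotypes on either chow, 4 to 4 over both, 0 to 1 between chows in pre-plaque APPPS1ΔE9 mice and 0 to 2 for the difference between ages on anle138b. Between pre-plaque genotypes, 205 of 16930 genes passed in the fit that reached 2 on placebo. Over both chows, 22 to 29 genes passed in those that reached 1. Between chows, 317 of 17196 genes passed in the fit that reached 1. Between ages, 21 of 17862 and 23 of 17816 genes passed in those that reached 2. RLE size factors, no filter and an adjusted p under 0.05 changed no such count by over 1.5 times. Lane as a term could be fitted only between pre-plaque genotypes on placebo, between chows in WT mice and between chows in post-plaque APPPS1ΔE9 mice, and gave 0 members there, as without it. The cause of these changes was not tested. Counts limit Hcst and Treml2 most.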
